A study of Homo sapiens with 6 samples.

Results

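The BCL2 family genes that hold cells alive or lead them to die were examined in AGS, an established human line from a gastric adenocarcinoma, after the gene of beta-catenin was silenced. The members were 10 genes chosen by name, 4 pro-survival genes (BCL2, BCL2L1, BCL2L2 and MCL1) and 6 pro-death genes (BAK1, BID, BIK, BCL2L11, BMF and PMAIP1), out of 18417 genes with a row of their own on the array. Of these, 9 had a row paired with their symbol alone. The row listed for BCL2L2 was paired with several symbols, so BCL2L2 is not analysed here. Each of the 9 had 1 such row, so none had to be chosen among several.

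The 2 groups were AGS cells transfected with CTNNB1 siRNA and AGS cells transfected with a non-targeting control siRNA, with 3 arrays each. RNA of both was taken 48 hours after transfection and hybridised to the Affymetrix Human Gene 1.0 ST array. Both groups are 1 cell line that had gone through transfection, and no untransfected cells were analysed here. The titles name biological replicates without saying whether passages or days differed, so a p-value here reflects the spread of these 6 arrays only.

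Proteins of the BCL2 family meet on the outer membrane of mitochondria. Pro-survival members such as BCL-2, BCL-XL and MCL-1 hold the effectors BAK and BAX in check; BH3-only proteins, which share with the others only a short helix called BH3, bind the pro-survival proteins or the effectors in response to stress and lost growth signals. Once freed, the effectors open the membrane, cytochrome c leaves, and caspases are activated. Many epithelial tumours hold high levels of MCL-1 or BCL-XL, and MCL-1 is a protein with a rapid turnover, so its amount follows synthesis closely. The arrays measured RNA only, and a row summarises probes along a gene, so the long and short splice forms of MCL1 and BCL2L1, which act in opposite ways, could not be told apart.

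The silenced gene matched its label. CTNNB1 had 10.27, 10.78 and 10.58 on the log2 scale in CTNNB1 siRNA cells, against 11.92, 11.76 and 11.75 in control siRNA cells. The difference was -1.27 (SE 0.17; adjusted p = 0.232 in limma). CTNNB1 siRNA replicate 1 was the array least like the rest, with Pearson correlations across transcript clusters of 0.962 to 0.965 with the others and 0.983 to 0.988 among the remaining pairs, so values without it are given for each member below. The epithelial marker list had 6 of 6 genes measured, at 6.40 to 13.18. Of the immune cell markers PTPRC, the pan-leukocyte gene, had 2.60 to 2.79 and CD3E, a T cell receptor component, 3.62 to 3.74. CD68, a macrophage gene that other cells also express, had 8.03, 8.74 and 8.85 in CTNNB1 siRNA cells, against 7.86, 8.07 and 8.09 in control siRNA cells. Its groups overlapped and its difference of 0.53 (SE 0.23, unadjusted p = 0.0469) did not pass (adjusted p = 0.816 in limma), and it was 0.78 without CTNNB1 siRNA replicate 1. PTPRC and CD3E lay below 5.36, the level under which the dimmest 40% of transcript clusters lay. Such rows are called dim here, because RMA, the normalisation behind these values, compresses differences there.

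No member of the family passed the threshold. Over all 19460 transcript clusters tested, limma with Benjamini-Hochberg adjustment called 0 of 9 members (lowest adjusted p = 0.816), where 0.00514% of clusters were called. The silenced gene CTNNB1 did not pass either (difference -1.27, adjusted p = 0.232 in limma). A count of 0 therefore does not show that the members were unchanged. At an unadjusted p under 0.05 there was 1 member, MCL1, which was higher, against 5.67% of all genes at that level (3.07% higher and 2.61% lower). The groups were fully apart for that member alone, higher, where 13.8% of genes were apart (6.86% higher and 6.89% lower). A count of 1 among 9 is near these shares, so it is no result about the family. By sign, 4 members were higher and 5 lower, where 49.1% of all genes were higher. Their median log2 difference was -0.0069, beside -0.0052 over all genes, and lay between -0.076 and 0.11 as single arrays were left out. The plot of levels by array shows the 9 members.

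**Figure D1:**
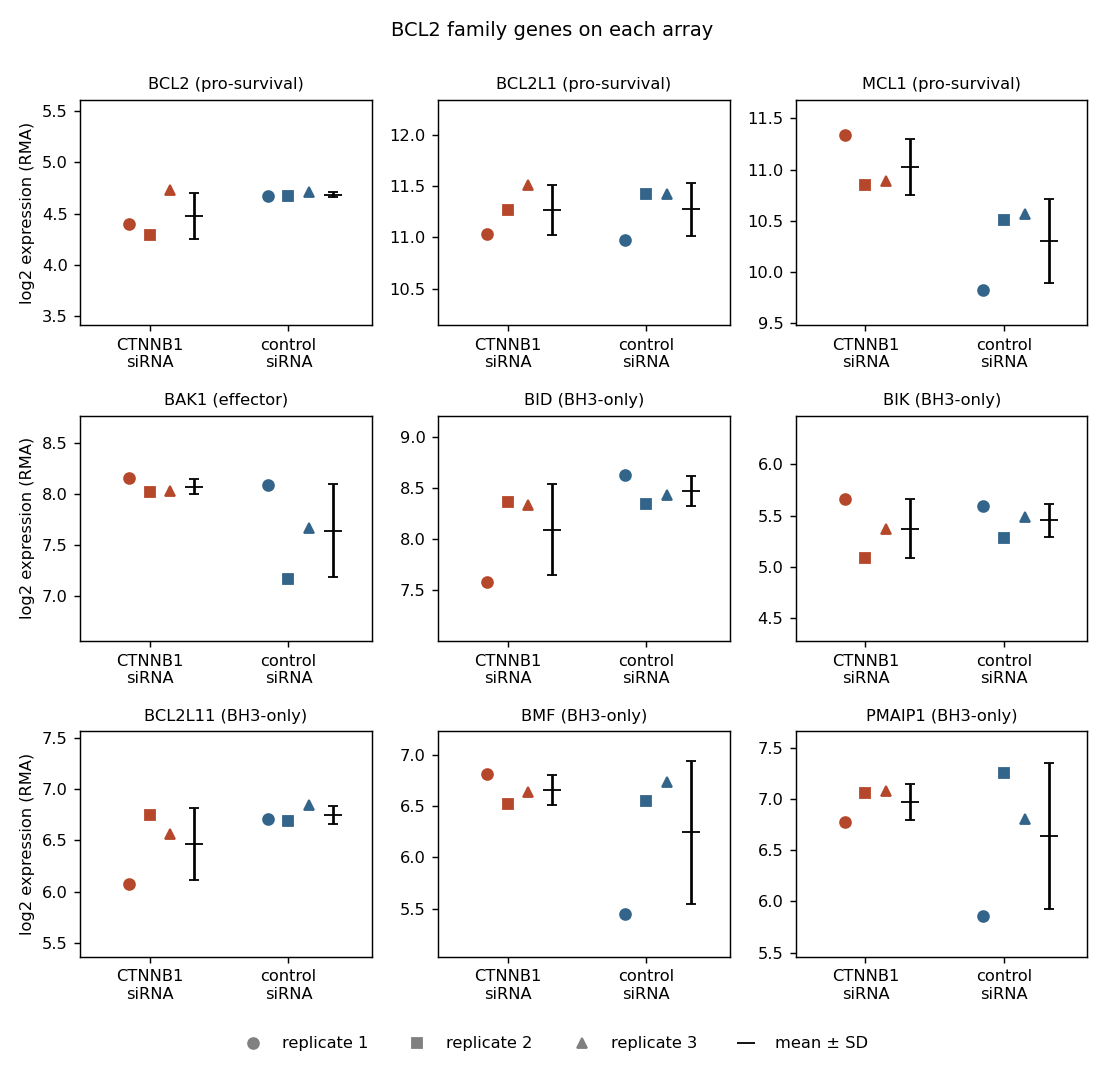
Log2 expression of the 9 measured members on each of the 6 arrays (CTNNB1 siRNA left, control siRNA right); symbols mark the replicates, bars the mean ± SD (n = 3), and every panel spans the same range of log2 units. The groups are apart for MCL1 only, control siRNA replicate 1 lies low for MCL1, BMF and PMAIP1, and CTNNB1 siRNA replicate 1 lies low for BID and BCL2L11.

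Among the pro-survival genes MCL1 had the largest difference of the 9 members. MCL1 had 11.34, 10.85 and 10.89 on the log2 scale in CTNNB1 siRNA cells, against 9.83, 10.51 and 10.57 in control siRNA cells. Each CTNNB1 siRNA array lay above each control array, while control siRNA replicate 1 was the lowest of all and CTNNB1 siRNA replicate 1 the highest. MCL1 averaged 11.02 ± 0.27 in CTNNB1 siRNA cells and 10.30 ± 0.41 in control siRNA cells (SD, n = 3 each), a log2 difference of 0.72 (SE 0.24, 95% confidence interval 0.18 to 1.27) or 1.65-fold. An absolute difference of this size or more was reached by 1.57% of all genes. That share is of single genes, while MCL1 was the largest of 9, which makes such a value less rare. The difference of MCL1 did not pass (unadjusted p = 0.0159, adjusted p = 0.816 in limma). Its exact 2-sided permutation p was 0.1, the smallest that 3 arrays against 3 allow. Without CTNNB1 siRNA replicate 1 the difference was 0.57, and without control siRNA replicate 1 it was 0.48.

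The summed level of the epithelial markers was apart between the groups, as MCL1 was. It was 60.98 to 64.08 in CTNNB1 siRNA cells and 58.90 to 59.87 in control siRNA cells over 6 genes. Among the controls the markers went the other way, with their highest mean on control siRNA replicate 1, where MCL1 was lowest. By gene, the marker differences ran from 0.016 (CDH1) to 0.96 (KRT19), and the groups overlapped for 4 of 6. The summed immune markers had 19.28 to 20.38 in CTNNB1 siRNA cells and 18.74 to 19.46 in control siRNA cells over 4 genes. The fibroblast and endothelial markers summed to 34.10 to 35.59 in CTNNB1 siRNA cells and 33.51 to 34.22 in control siRNA cells over 7 genes, and the groups overlapped for both lists. The part of these lists in the value of MCL1 was not tested.

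BCL2L1, the gene of BCL-XL, had 11.03, 11.27 and 11.51 in CTNNB1 siRNA cells, against 10.98, 11.42 and 11.43 in control siRNA cells. Replicate 1 was the lowest array of each group, and the groups overlapped almost fully. The log2 difference was -0.0069 (SE 0.19), and its 95% confidence interval of -0.44 to 0.43 still holds changes of that size in either direction. The sign turned with the arrays kept: the difference was 0.11 without CTNNB1 siRNA replicate 1, and 0.065 and 0.069 without control siRNA replicates 2 and 3, but -0.13 without CTNNB1 siRNA replicate 3 and -0.15 without control siRNA replicate 1. BCL2, the founding pro-survival gene, had 4.40, 4.29 and 4.73 in CTNNB1 siRNA cells, against 4.67, 4.68 and 4.71 in control siRNA cells. A pair of CTNNB1 siRNA arrays lay below every control array and the remaining one above them all, so the groups overlapped. The difference of -0.21 (SE 0.15, 95% confidence interval -0.57 to 0.14) came from a dim row, whose differences are compressed. It was -0.18 without CTNNB1 siRNA replicate 1, -0.12 without replicate 2 and -0.34 without replicate 3.

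BAK1, the effector that sits on mitochondria before any death signal, had 8.16, 8.02 and 8.03 in CTNNB1 siRNA cells, against 8.09, 7.17 and 7.67 in control siRNA cells. The CTNNB1 siRNA arrays lay close together, and control siRNA replicate 1 fell among them while the other two controls were lower. The log2 difference was 0.43 (SE 0.23, 95% confidence interval -0.093 to 0.95; unadjusted p = 0.0949, adjusted p = 0.816 in limma). It was 0.39 without CTNNB1 siRNA replicate 1, 0.65 without control siRNA replicate 1 and 0.19 without control siRNA replicate 2. BAX, the other effector and no member of the group, differed by -0.021 (SE 0.16).

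BAK1 was also the member whose promoter held the core of the motif bound by TCF/LEF factors, the DNA-binding partners of beta-catenin, and its sequence is shown for that reason. The promoter table of RefSeq (GRCh38.p14) matched 7 of the 10 members by symbol, with 13 windows of 300 bases in all; MCL1, BIK and BCL2L2 had no entry. The motif CTTTGAT was searched on both strands, with no other motif beside it. It occurred in 2.62% of the 35116 windows of the table and in 1 of the 13 windows of the members. In BAK1 it begins at base -168, counted back from the start site, on the strand opposite to the gene, so that it reads ATCAAAG along the gene. The 250 bases before the BAK1 start site, at chr6:33580277-33580526 on the minus strand, are given 5′ to 3′ with the match in capitals.
BAK1: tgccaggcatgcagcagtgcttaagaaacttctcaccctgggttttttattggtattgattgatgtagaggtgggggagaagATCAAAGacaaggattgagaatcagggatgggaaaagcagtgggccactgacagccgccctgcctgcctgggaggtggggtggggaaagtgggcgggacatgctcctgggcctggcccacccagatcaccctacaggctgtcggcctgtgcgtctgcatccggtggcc
A match of these letters is a description of the window, and no binding was measured. GC content of the 13 windows ran from 48.7% to 78.0%, around a median of 58.7% over all windows.

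The BH3-only genes split by sign, with BMF and PMAIP1 higher and BID, BCL2L11 and BIK lower, and the groups overlapped for all 5. BMF, whose protein is known for its response to lost attachment and to changes of the cytoskeleton, had 6.81, 6.52 and 6.64 in CTNNB1 siRNA cells, against 5.45, 6.55 and 6.74 in control siRNA cells. Control siRNA replicate 1 was far below the other 5 arrays, which lay together. The log2 difference of 0.41 (SE 0.32, 95% confidence interval -0.32 to 1.14) was 0.012 without that array. It was 0.33 without CTNNB1 siRNA replicate 1 and 0.66 without control siRNA replicate 3.

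PMAIP1, the gene of NOXA, a BH3-only protein that binds MCL-1 and is induced by cell stress, had 6.77, 7.06 and 7.08 in CTNNB1 siRNA cells, against 5.86, 7.26 and 6.80 in control siRNA cells. Control siRNA replicate 1 was again the lowest array, and the highest was a control as well. The log2 difference was 0.33 (SE 0.32, 95% confidence interval -0.42 to 1.08). Without control siRNA replicate 1 it turned to -0.059, without control siRNA replicate 2 it was 0.64, and without CTNNB1 siRNA replicate 1 it was 0.43.

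BID, which is cut by caspase-8 and so links death receptors to mitochondria, had 7.58, 8.37 and 8.33 in CTNNB1 siRNA cells, against 8.63, 8.34 and 8.43 in control siRNA cells. A single array, CTNNB1 siRNA replicate 1, was low, and the other two lay among or near the controls. The log2 difference of -0.37 (SE 0.23, 95% confidence interval -0.90 to 0.15) was -0.12 without that array.

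BCL2L11, the gene of BIM, which binds all the pro-survival proteins, had 6.08, 6.75 and 6.57 in CTNNB1 siRNA cells, against 6.71, 6.69 and 6.85 in control siRNA cells. Here too the low array was CTNNB1 siRNA replicate 1. The log2 difference of -0.28 (SE 0.19, 95% confidence interval -0.73 to 0.16) was -0.091 without it.

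BIK, whose protein lies mostly at the endoplasmic reticulum, had 5.66, 5.09 and 5.37 in CTNNB1 siRNA cells, against 5.60, 5.28 and 5.49 in control siRNA cells. The 2 groups covered nearly the same range, and in each the second replicate was lowest. The log2 difference was -0.080 (SE 0.18, 95% confidence interval -0.50 to 0.34). It turned to 0.062 without CTNNB1 siRNA replicate 2 and was -0.22 without CTNNB1 siRNA replicate 1 and -0.0089 without control siRNA replicate 1. The row's mean of 5.41 was just above the level taken as dim.

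**Figure D2:**
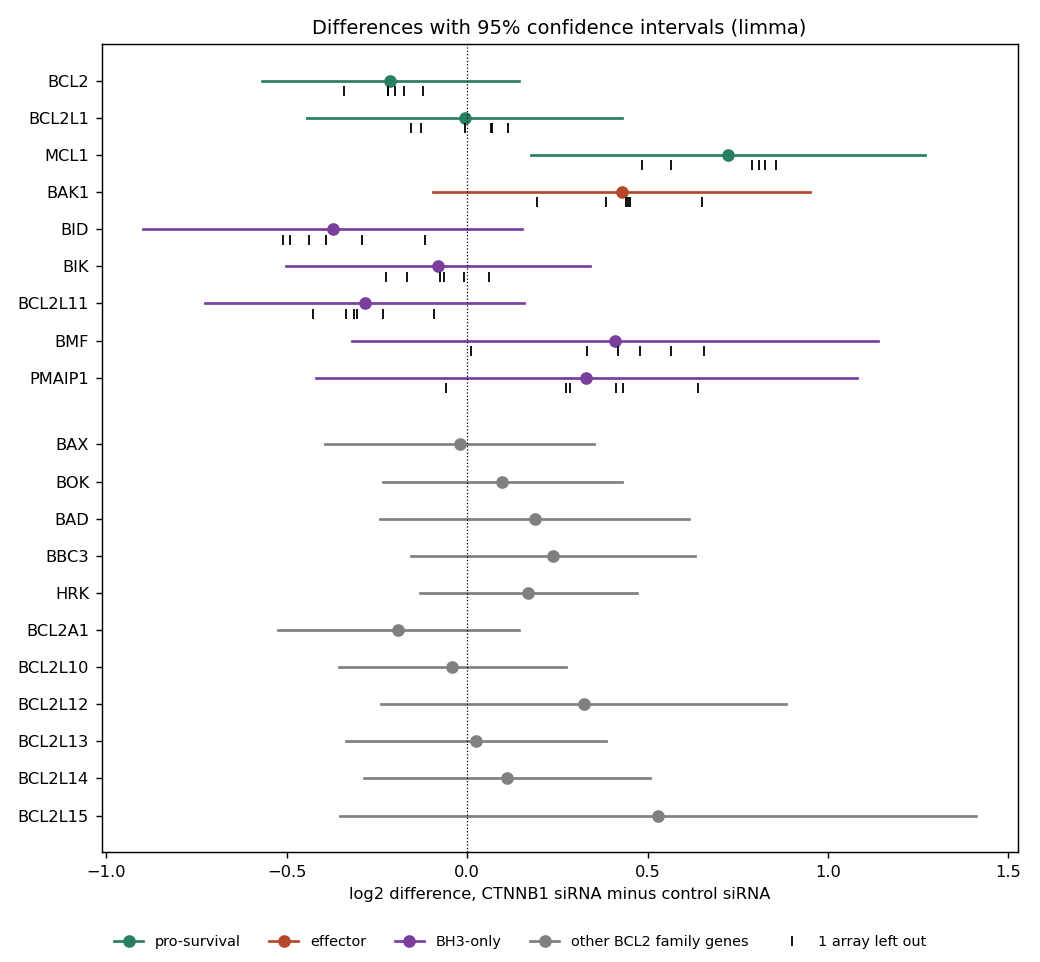
Log2 difference, CTNNB1 siRNA minus control siRNA, for the 9 members by role (colours) and 11 further BCL2 family genes (grey), with lines for the 95% confidence interval from limma and, for the members, black ticks for the difference with 1 array left out. The interval of MCL1 (0.18 to 1.27) is the 1 interval of a member that does not hold 0; it is not adjusted for the number of genes.

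The pro-death members had a median log2 difference of 0.12 over 6 genes and the pro-survival members -0.0069 over 3 genes, beside -0.0052 over all genes, whose middle 50% ran from -0.16 to 0.14. The mean of the pro-death members, as a deviation from the control mean, was -0.022, 0.10 and 0.14 on the CTNNB1 siRNA arrays and -0.14, 0.016 and 0.13 on the control arrays. The mean of the pro-survival members was 0.17, 0.048 and 0.29 on the CTNNB1 siRNA arrays and -0.26, 0.11 and 0.15 on the control arrays. On both sides the groups overlapped and control siRNA replicate 1 was the lowest array.

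The pro-death mean minus the pro-survival mean was -0.19, 0.054 and -0.15 on the CTNNB1 siRNA arrays and 0.12, -0.098 and -0.018 on the control arrays. Its difference between the groups was -0.095, beside an SD of 0.12 between arrays of a group. The gap was -0.28 when the dim BCL2 was left out, -0.17 without CTNNB1 siRNA replicate 2 and -0.145 without control siRNA replicate 2. These were larger in size than that SD. The SD is one of single arrays with all members and arrays kept, so it does not give the error of these gaps. The gap was -0.048 without CTNNB1 siRNA replicate 1 and -0.037 without control siRNA replicate 1. Its size therefore rests on the genes and arrays kept. The median of the pro-death members was -0.034 without control siRNA replicate 1, and that of the pro-survival members, which rests on 3 genes, lay between -0.15 and 0.11 as single arrays were left out. With the dim BCL2 left out it was 0.36.

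**Figure D3:**
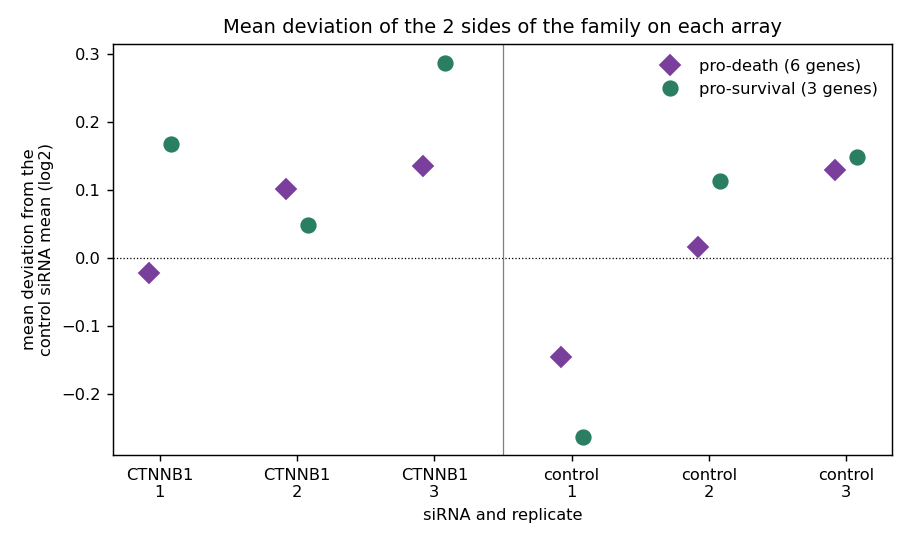
Mean deviation of the pro-death (diamonds, 6 genes) and pro-survival (circles, 3 genes) members from their control siRNA mean on each array, in log2 units; the CTNNB1 siRNA arrays stand left of the line. Both sides are lowest on control siRNA replicate 1 (-0.14 and -0.26), and the groups overlap.

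Replicate 1 of one group or the other held an extreme value for most members. Control siRNA replicate 1 was the lowest of the 6 arrays for 4 of 9 members, BCL2L1, MCL1, BMF and PMAIP1. CTNNB1 siRNA replicate 1 was the highest for 4, MCL1, BAK1, BIK and BMF, and the lowest for BID and BCL2L11. The share of all genes with an extreme on these arrays was not counted, and CTNNB1 siRNA replicate 1 was the array least like the rest. These counts are therefore no result about the family. As a description over 6 arrays, the 36 pairs of members were ranked by the Euclidean distance between their levels, each centred on its own mean. BID and BCL2L11, both low on CTNNB1 siRNA replicate 1, were the closest pair at 0.331 log2 units. BCL2 and BCL2L1 (0.494) and BCL2 and BIK (0.539) came next. MCL1 and BMF, both low on control siRNA replicate 1, were at 0.59. BCL2L11 lay at 0.591 from BCL2L1 and 0.597 from BCL2, and BMF and PMAIP1 were at 0.639. MCL1 and BID were the farthest apart at 1.85.

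MCL1 varied most among the members (SD 0.504 over 6 arrays). By the same distance, taken over 9257 genes at or above the median level, the genes most like it were ACSF2, a gene of the acyl-CoA synthetase family (0.221), RNF19B, a gene of a RING ubiquitin ligase (0.225), and CSTPP1, a gene of a centriolar satellite protein (0.229). RNF19B had 8.91, 8.28 and 8.23 in CTNNB1 siRNA cells, against 7.44, 8.04 and 8.03 in control siRNA cells, so it too was highest on CTNNB1 siRNA replicate 1 and lowest on control siRNA replicate 1. The log2 differences of ACSF2, RNF19B and CSTPP1 were 0.57, 0.64 and 0.67, and none passed (adjusted p = 0.816 each in limma). These genes were picked for the likeness of their levels to MCL1. Like extremes and like differences therefore follow from the choice and are no separate result.

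The rest of the cell death pathway was read from lists that do not overlap the members. In limma 0 genes of any of these lists passed over all clusters (lowest adjusted p = 0.816 in each). The counts at an unadjusted p under 0.05 are given by list. Over all genes 5.67% had such a p and 13.8% had groups apart. Among 11 other BCL2 family genes 8 were higher and 3 lower, with a median of 0.11 (0.043 without CTNNB1 siRNA replicate 1), and 0 had an unadjusted p under 0.05. BBC3, the gene of the BH3-only protein PUMA, had a difference of 0.24 (SE 0.17), which was 0.11 when control siRNA replicate 1 was left out. BCL2L15 differed by 0.53 (SE 0.38) and BCL2L12 by 0.32 (SE 0.24), and both rested on CTNNB1 siRNA replicate 1, without which they were 0.022 and 0.033. HRK, a BH3-only gene named after its values were seen, was the 1 of 11 with groups apart, beside 13.8% of all genes. It had 7.54 to 7.67 in CTNNB1 siRNA cells and 7.39 to 7.54 in control siRNA cells, a margin lost in rounding.

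The inhibitors of apoptosis, which bind caspases or direct their ubiquitination, had the highest median of the 5 cell death lists, 0.39 with all arrays and 0.24 without CTNNB1 siRNA replicate 1. Of 5 measured genes (BIRC3 is not analysed here) 4 were higher, and 3 without that array; 2 were higher at an unadjusted p under 0.05 with groups apart, beside 3.07% and 6.86% of all genes. BIRC7, the gene of livin, had 6.02, 5.97 and 5.81 in CTNNB1 siRNA cells, against 5.43, 5.26 and 5.65 in control siRNA cells, a log2 difference of 0.49 (SE 0.15, unadjusted p = 0.0135). XIAP, the gene of a direct caspase inhibitor, had 6.58, 6.23 and 6.17 in CTNNB1 siRNA cells, against 5.96, 6.01 and 5.84 in control siRNA cells, a log2 difference of 0.39 (SE 0.16, unadjusted p = 0.0376). The 3 arrays of each group stood clear of the other for both genes, though neither passed over all clusters. BIRC2, the gene of cIAP1, differed by 0.55 (SE 0.27) and overlapped. Without CTNNB1 siRNA replicate 1 the differences were 0.44 for BIRC7, 0.27 for XIAP and 0.24 for BIRC2. BIRC5, the gene of survivin, and BIRC6 made up the rest of the list, whose lowest difference was -0.15.

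Downstream, 13 caspase and apoptosome genes had a median of 0.073, with 9 higher, 4 lower and 0 at an unadjusted p under 0.05. When CTNNB1 siRNA replicate 1 was left out, the median was -0.015 and 5 of 13 were higher, and without control siRNA replicate 1 it was 0.17. CASP10, an initiator caspase gene, was 0.29 higher (SE 0.15) with groups apart, in a dim row, and 0.18 without CTNNB1 siRNA replicate 2. It was the 1 gene of 13 with groups apart, beside 13.8% of all genes. CASP2 differed by -0.38 (SE 0.23) and APAF1, the scaffold of the apoptosome, by 0.37 (SE 0.23). Without CTNNB1 siRNA replicate 1 CASP2 was at -0.14 and APAF1 at 0.14. CASP2 thus shared with BID and BCL2L11 its lowest value on that array, as did HUWE1 and DYNLL2 of the regulators list. That array was the one least like the rest, and the share of all genes lowest on it was not counted.

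Of 10 measured death receptor genes 9 were higher and 1 lower, where 49.1% of all genes were higher, with a median of 0.19 and 0 at an unadjusted p under 0.05. When CTNNB1 siRNA replicate 1 was left out, the median was 0.084 and 8 of 10 were higher. TNFRSF1A, the main TNF receptor gene, had 8.93 ± 0.065 in CTNNB1 siRNA cells and 8.64 ± 0.10 in control siRNA cells (SD, n = 3 each). Its difference was 0.30 (SE 0.13), and it was the 1 gene of 10 with groups apart, beside 13.8% of all genes. FAS, the receptor of Fas ligand, was the lower gene, at -0.33 (SE 0.18) with groups that overlapped, and -0.20 without CTNNB1 siRNA replicate 1. TNFRSF10B, a TRAIL receptor gene, differed by 0.29 (SE 0.20), and by 0.14 without either replicate 1.

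Among 23 regulators and partners of BCL2 proteins 12 were higher and 11 lower, with a median of 0.0076. In limma 1 gene, JUN, was higher at an unadjusted p under 0.05, beside 3.07% of all genes. JUN, a stress-responsive transcription factor gene, had 8.90, 8.40 and 8.26 in CTNNB1 siRNA cells, against 7.39, 8.29 and 7.97 in control siRNA cells. The groups overlapped by 1 array, control siRNA replicate 1 was the lowest as for MCL1, and the difference of 0.64 (SE 0.26) was 0.39 without it and 0.45 without CTNNB1 siRNA replicate 1. VDAC1, a mitochondrial outer membrane channel gene, was 8.75 ± 0.039 in CTNNB1 siRNA cells and 8.45 ± 0.12 in control siRNA cells (SD, n = 3 each), with the groups apart and a difference of 0.30 (SE 0.13). VDAC3, named after its values were seen, was the gene apart in the other direction, at -0.21 (SE 0.15). Without control siRNA replicate 1, its highest array, VDAC3 was at -0.098. Groups were thus apart for 1 higher and 1 lower gene of 23, beside 6.86% and 6.89% of all genes. DYNLL2, the dynein light chain gene whose protein holds BMF on the cytoskeleton, differed by -0.53 (SE 0.25), and by -0.24 without CTNNB1 siRNA replicate 1.

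**Figure D4:**
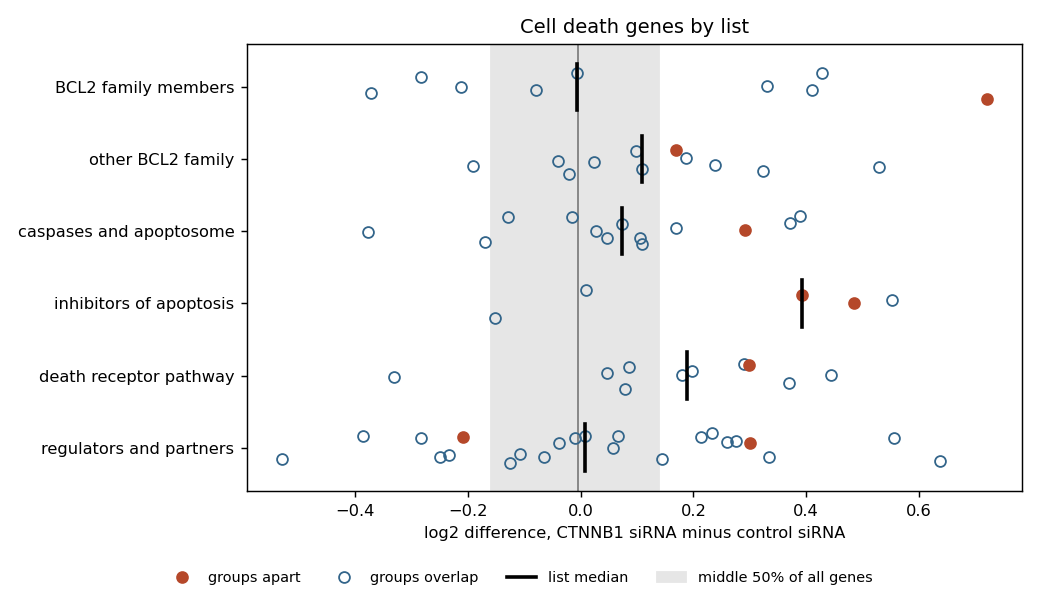
Log2 difference, CTNNB1 siRNA minus control siRNA, of each measured gene in the BCL2 family and in 5 lists of the cell death pathway; filled points have groups that do not overlap, thick bars are list medians, and the grey band is the middle 50% of all genes (-0.16 to 0.14). MCL1 is the filled point at 0.72, and the inhibitors of apoptosis have the highest median (0.39, and 0.24 without CTNNB1 siRNA replicate 1).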

How the data were processed

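Total RNA (500 ng a sample) of AGS cells was profiled on 6 arrays. Each deposited value is the log2 level of 1 transcript cluster (a row of probes along a gene). The authors computed it by RMA, using Expression Console 1.1, per the submitters' processing notes. The genome build, the annotation and the settings were not given in the sources used here. RMA brings all arrays to 1 distribution of intensities and hides any change common to every transcript. Of 33297 rows, 19460 were paired with 1 symbol by the platform's annotation and tested; 1754 rows with several symbols and 12083 without a listed gene were left out. Symbols were taken from the RefSeq gene table (GRCh38.p14) for the 19429 rows matched there, whether or not the symbol changed. The row with the highest mean stood for a gene.

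Groups were compared with limma 3.58.1 (lmFit, eBayes) in R 4.3.3, 2-sided, Benjamini-Hochberg over the tested rows, threshold 0.05. The steps were tested on simulated data with added shifts larger than the difference of any member. That test cannot tell whether differences of the size seen here would be found. The number of arrays limits the precision. Members and lists were chosen with earlier results of these data known. The rule for named genes takes all members, CTNNB1, the 3 genes with the smallest p of each list, and the 3 genes nearest to the most variable member. Alternatives left out single arrays or the dimmest 40% of rows, added a replicate block, array weights or a variance trend, centred arrays on their median, or averaged a gene's rows. Listed genes without a tested row are not reported here.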

Additional observations from a re-analysis of the deposited data

How the results depend on the processing

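No alternative called a member of the family: the count of members past the threshold was 0 in all 12, with 1 or 2 members at an unadjusted p under 0.05. Over all clusters limma called 1, and 0 to 10 when single arrays were left out, 0 without the dimmest 40% of clusters, 0 with the replicate block and 13 with array quality weights. MCL1 stayed higher in all 12 alternatives (0.48 to 0.86, unadjusted p of 0.0155 to 0.0462, adjusted p of 0.493 to 0.937), and so did BAK1 (0.19 to 0.65, adjusted p of 0.552 to 0.937). When single arrays were left out, the difference ranged from -0.15 to 0.11 for BCL2L1, from -0.22 to 0.062 for BIK and from -0.059 to 0.64 for PMAIP1, so the sign of these 3 is not settled, and BCL2L1 was 0.013 with array weights. Of 298 pairs of a named gene and an alternative, 291 kept direction and side of the threshold and 6 changed sign. The last was CTNNB1, called with array weights (-1.12, adjusted p = 0.0219 in limma). The replicate block, the variance trend, the dim filter and row averaging leave the differences of these genes as they were. With main adjusted p well above 0.05, most pairs were also likely to stay on their side. The 291, and the signs of MCL1 and BAK1 in all 12, were thus partly fixed in advance. The pro-death median ranged from -0.034 to 0.17 when single arrays were left out. Without the dimmest 40% of clusters the pro-survival median was 0.36 and the gap between the sides -0.28, since BCL2 then drops out. The main fit did not pair the samples by replicate number. Deviations from the group means correlated at 0.092, 0.12 and 0.098 for numbers 1 to 3 across 19460 clusters. Pairs of unlike numbers had -0.101 to 0.028. Each array thus correlated best with its own number, weakly, which is a hint of pairing from the data only. With the replicate block MCL1 had an unadjusted p of 0.0361 (difference 0.72), and 0 members were called. The medians of the lists, and VDAC3, HRK and CD68, were recomputed without single arrays by a choice made after seeing the data.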

Other observations

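CFLAR, the gene of the caspase-8 inhibitor c-FLIP, had 2 rows that disagreed, and is named here after its values were seen. The row with the higher mean had 6.89, 7.08 and 7.02 in CTNNB1 siRNA cells, against 6.71, 6.96 and 7.06 in control siRNA cells, a log2 difference of 0.086 (SE 0.15) with groups that overlapped. The other row had 4.39, 4.35 and 4.42 in CTNNB1 siRNA cells, against 5.06, 4.73 and 4.74 in control siRNA cells, a log2 difference of -0.46 (SE 0.15, unadjusted p = 0.0141, adjusted p = 0.816 in limma) with every CTNNB1 siRNA array below every control array. The second row was dim, at a mean of 4.62, and which transcripts each row reads was not analysed here.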
